A study of Gossypium hirsutum with 18 samples.

Results

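Cytokinin genes were followed in ovules of upland cotton (Gossypium hirsutum) around flower opening. They were taken from the authors' tables of changed genes by protein name, in any case of letters. The names were those holding cytokinin, two-component response regulator (without APRR), histidine-containing phosphotransfer, adenylate isopentenyltransferase or UDP-glycosyltransferase 76C. This gave 26 of the 11153 genes listed on any day, with 2 at -1 day post-anthesis (DPA), 2 at 0 DPA and 24 at 1 DPA, and 2 genes were listed on 2 days. On those days the authors called 1.50%, 2.38% and 17.6% of all genes they tested, and how many cytokinin genes they tested is not known here. A search term stood in the recommended protein name of 17 members and only in an alternative name of 9. A total of 14 members lie on the A subgenome and 12 on the D subgenome.

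RNA of untreated ovules of 2 genotypes, Xu142fl and Xu142, was sequenced in 18 libraries, 3 for each genotype at -1, 0 and 1 DPA. As background, Xu142fl is a mutant without fuzz or lint that arose from the fiber-bearing line Xu142, and fiber cells begin to protrude from the ovule surface on these days. The comparison on each day is between the genotypes, within the 6 libraries of that day. Nothing in the labels says that replicates came from separate plants, so that p-values measure only the spread between these libraries, which may be technical. In bulk ovules, fewer cells of a type and less RNA per cell cannot be told apart.

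Cytokinins are adenine-derived hormones that drive cell division and, in cultured cotton ovules, bear on fiber formation. Isopentenyltransferases start their synthesis, LOG enzymes release the active free base, cytokinin dehydrogenases (CKX) cleave it, and sugar transferases lock it in conjugates. Signalling runs from membrane histidine kinases through phosphotransfer proteins to response regulators, of which type-B members switch genes on and type-A members feed back negatively. Cytokinin response factors are AP2 transcription factors that act beside the type-B regulators. These roles were worked out mostly in Arabidopsis, and each cotton gene carries the name of its closest described protein.

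The tables list only genes the authors called, and every listed gene had an adjusted p under 0.05 with a deposited log2 fold change of 1 or more in size. The highest listed adjusted p was 4.93e-05 at -1 DPA, 0.0131 at 0 DPA and 0.0497 at 1 DPA. Levels are normalised reads, that is, whole reads divided by 1 factor per library. Log2 ratios are those of group means, Xu142fl over Xu142, with their SE (n = 3 each), and adjusted p-values are the authors' own. At 1 DPA 10793 genes were listed, 3505 higher and 7288 lower in Xu142fl. The listed genes of a library held between 130502 and 6388114 recovered reads on the 3 days, and these sums are not library depths.

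Among the marker lists at 1 DPA, 6 of 26 listed fiber and epidermis genes were higher and 20 lower, with summed levels of 30455 to 45365 in Xu142fl and 336670 to 472609 in Xu142. In that list 2 genes, each named HDG11, had no read in Xu142fl, and 1 gene of the list had no read in Xu142. The other lists were 1 higher and 7 lower for seed coat, 8 and 26 for green tissue, and 6 and 22 for pollen and anther, while no embryo or endosperm gene was listed. Over all listed genes at 1 DPA 3505 were higher and 7288 lower. The summed seed coat level was 3457 to 5335 in Xu142fl and 15259 to 17792 in Xu142. The green tissue level was 419 to 493 in Xu142fl and 1144 to 1318 in Xu142, and that of pollen and anther 4778 to 5970.1 in Xu142fl and 17045 to 26107 in Xu142. At -1 DPA the lists held 1 higher and 7 lower genes for fiber and epidermis, 0 and 7 for green tissue and 2 and 0 for pollen and anther. All listed genes of that day were 479 higher and 393 lower. At 0 DPA all listed markers were lower, 11 for fiber and epidermis, 7 for green tissue, 5 for pollen and anther and 1 for seed coat. All listed genes at 0 DPA were 502 higher and 864 lower. The summed fiber and epidermis level was 4628 to 5754 in Xu142fl and 13479 to 15068 in Xu142 at -1 DPA, and 2589 to 3610 in Xu142fl and 13196 to 29551 in Xu142 at 0 DPA. Green tissue summed to 248 to 319 in Xu142fl and 695 to 1231 in Xu142 at -1 DPA, and to 120.4 to 134 in Xu142fl and 381 to 502 in Xu142 at 0 DPA. Pollen and anther summed to 1742 to 1987 in Xu142fl and 616 to 796 in Xu142 at -1 DPA, and to 172 to 327 in Xu142fl and 602 to 1041 in Xu142 at 0 DPA. The part of these tissues in the differences below was not tested.

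At 1 DPA the 3 listed cytokinin dehydrogenases, the 3 listed histidine kinase 4 genes and the 1 listed phosphotransfer gene were higher in Xu142fl, and the 3 listed cytokinin response factors were lower. Listed LOG enzymes, UGT76C2 genes and response regulators were split. Family members that were not listed are not known here. Of the 24 members 15 were higher and 9 lower, with a median log2 ratio of 1.25, beside -1.31 over all listed genes. Higher genes thus made up 62.5% of the listed members and 32.5% of all listed genes. Among all tested genes at 1 DPA, 5.70% were called higher and 11.9% lower. Libraries of the genotypes did not overlap in any of the 24 members, as in 97.6% of all listed genes.

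An edgeR refit of the recovered reads saw listed genes only, so that an unlisted gene could not be called. At -1 DPA the refit called both members, beside all 872 listed genes (1.50% of all tested genes). At 0 DPA it called 0 of 2, beside 1144 of the 1366 listed genes (2% of the 57326 tested genes). Both members had an unadjusted p under 0.05 there, and a DESeq2 refit called 1. At 1 DPA the edgeR refit called 21 of the 24, beside 10130 of the 10793 listed genes (16.5% of all tested genes). It called 15 to 21 when 1 library was left out (15 without Xu142fl replicate 2 or replicate 3). Factors taken from the listed genes raised the log2 ratios at 1 DPA by a median of 1.20 (TMM) or 1.24 (DESeq2). All 15 higher members were then called, while of the 9 lower ones LOG3 stayed called, 7 were lower without a call and a UGT76C2 gene, Gh_A05G296100, turned to 0.083 or 0.12. Over all listed genes 3505 (TMM) or 3503 (DESeq2) were then called higher, beside 3505 listed as higher. Those called lower were 2411 or 2317, beside 7288 listed as lower.

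**Figure D1:**
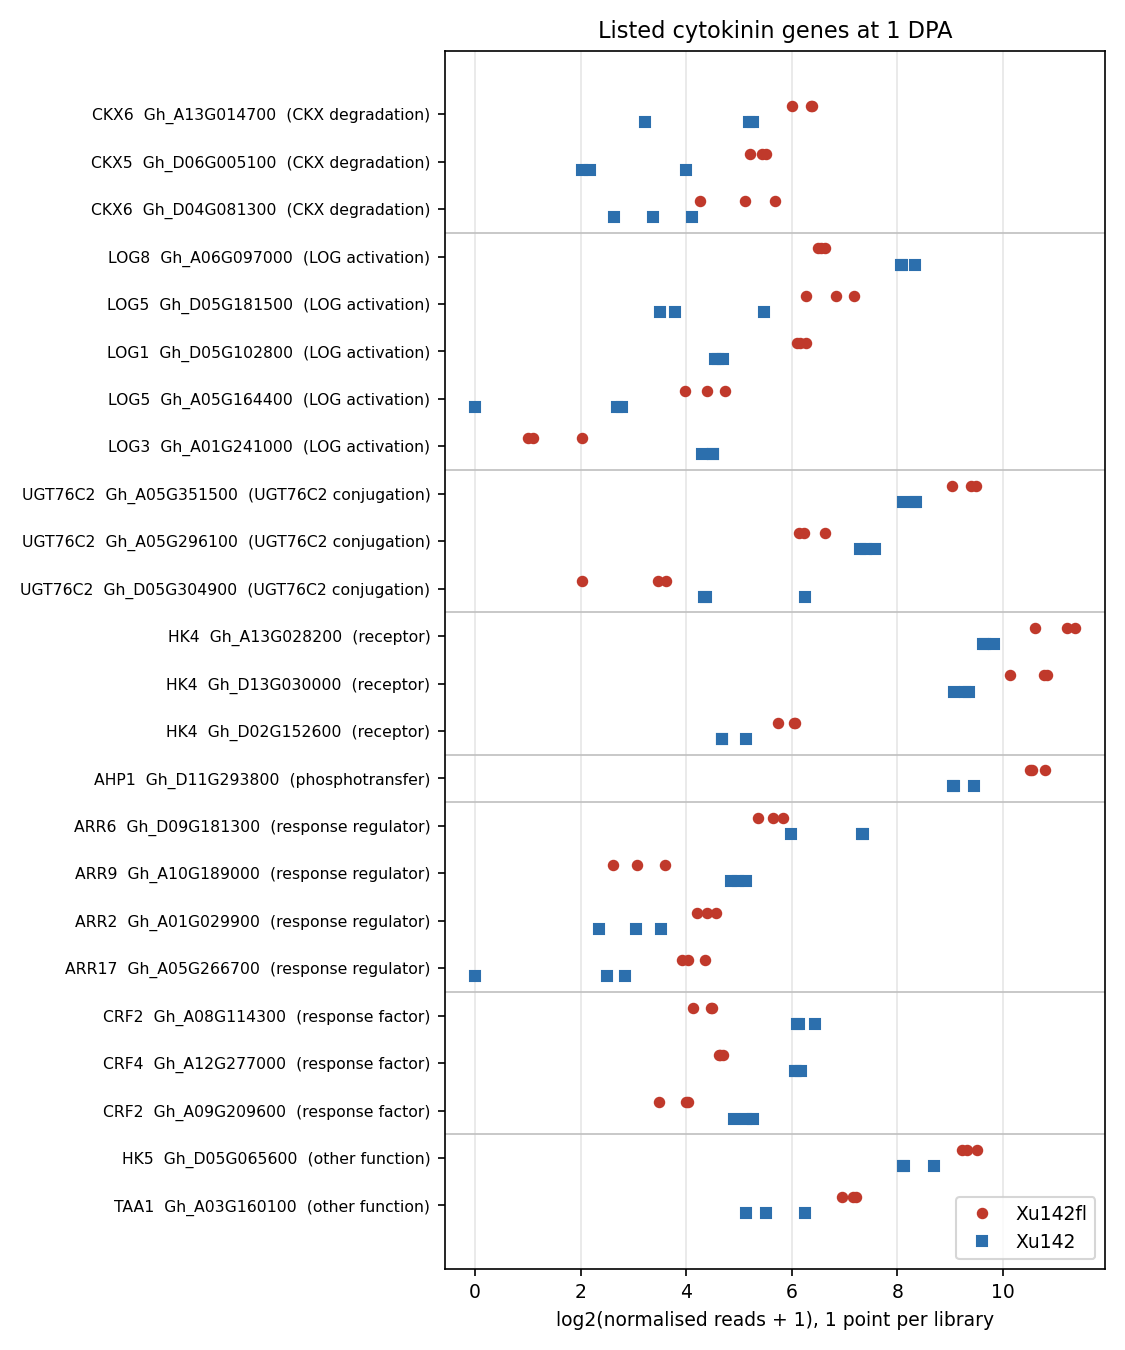
Levels of the 24 listed cytokinin genes at 1 DPA, as log2(normalised reads + 1) on the x axis, with 1 circle per Xu142fl library and 1 square per Xu142 library. Rows are genes, grouped by role, and the symbols of the genotypes do not overlap in any row.

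Cytokinin dehydrogenases oxidise the hormone's side chain and so remove it. At -1 DPA a CKX5 gene, Gh_D05G190700 (chromosome D05, 16793564 to 16797940), had 171, 193 and 185 normalised reads in Xu142fl, against 65.3, 64.6 and 71.1 in Xu142. The libraries of each genotype lay close together. This came to a log2 ratio of 1.45 ± 0.07, with an adjusted p of 7.04e-14 in the authors' deposited table, on a day when 0.824% of all tested genes were called higher. Under DESeq2 factors from the listed genes it was 0.34 and not called.

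At 1 DPA another CKX5 gene, Gh_D06G005100 (chromosome D06, 443817 to 448279), had 42.1, 35.9 and 44.8 normalised reads in Xu142fl, against 3.10, 15.01 and 3.51 in Xu142. Xu142 replicate 2 stood above the other Xu142 libraries, and the log2 ratio of 2.51 ± 0.79 was 3.59 without it (adjusted p = 1.56e-05 in the authors' deposited table). The CKX6 gene Gh_A13G014700 had 63.2, 81.0 and 82.3 normalised reads in Xu142fl, against 8.27, 35.5 and 37.4 in Xu142, here with Xu142 replicate 1 lowest. The CKX6 gene Gh_D04G081300 had 18.1, 33.8 and 50.5 in Xu142fl, against 5.17, 16.4 and 9.36 in Xu142, so that its highest Xu142 library came near its lowest Xu142fl library. Their log2 ratios were 1.48 ± 0.52 and 1.73 ± 0.61, with adjusted p-values of 0.00165 and 0.00553 in the authors' deposited table.

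Both CKX6 genes lay near the threshold in the edgeR refit. Their log2 ratios were 1.05 to 1.83 (Gh_A13G014700) and 1.35 to 2.25 (Gh_D04G081300) when 1 library was left out. The edgeR adjusted p of Gh_A13G014700 was 0.0536 with all libraries and 0.0539 to 0.184 without Xu142fl replicate 1, 2 or 3 or Xu142 replicate 2 or 3. For Gh_D04G081300 it was 0.0729 to 0.261 without Xu142fl replicate 2 or 3 or Xu142 replicate 1 or 3.

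LOG enzymes cut ribose phosphate from cytokinin nucleotides in 1 step. The 5 LOG genes listed at 1 DPA went both ways, 3 higher and 2 lower. LOG8 (Gh_A06G097000, chromosome A06, 28594458 to 28596823) had the most reads of the 5 and was lower, with 97.3, 89.2 and 92.5 normalised reads in Xu142fl, against 271, 269 and 323 in Xu142. This gave a log2 ratio of -1.63 ± 0.10 (adjusted p = 2.2e-16 in the authors' deposited table), which was -0.43 or -0.39 and not called under TMM or DESeq2 factors from the listed genes. LOG3 (Gh_A01G241000) had the lowest ratio of all 24 members, -3.58 ± 0.56, from 6 reads over the Xu142fl libraries and 53 over those of Xu142. In normalised reads LOG3 stood at 1.00, 3.07 and 1.13 in Xu142fl, against 21.7, 21.8 and 18.7 in Xu142 (adjusted p = 7.06e-06 in the authors' deposited table).

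LOG1 (Gh_D05G102800, chromosome D05, 8663956 to 8667274) was higher, with 76.3, 70.7 and 67.5 normalised reads in Xu142fl, against 24.8, 23.2 and 22.2 in Xu142. The libraries of each genotype lay within a few reads of each other, and the log2 ratio was 1.61 ± 0.07 (adjusted p = 5.3e-06 in the authors' deposited table). LOG5 was higher in a D-subgenome and an A-subgenome gene on chromosomes of the same number. Gh_D05G181500 had 76.3, 113 and 144 normalised reads in Xu142fl, against 10.3, 43.7 and 12.9 in Xu142. Its log2 ratio of 2.32 ± 0.74 (adjusted p = 8.59e-07 in the authors' deposited table) was 3.26 without Xu142 replicate 2, the high one of that genotype.

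The LOG5 gene of the A subgenome, Gh_A05G164400, had 20.1, 25.6 and 14.7 normalised reads in Xu142fl, against 0, 5.46 and 5.85 in Xu142. In this copy the log2 ratio was 2.42 ± 0.76 (adjusted p = 0.00323 in the authors' deposited table), and 1.78 without Xu142 replicate 1, which had no read. In the edgeR refit its adjusted p was 0.0656 to 0.174 without Xu142fl replicate 1, 2 or 3 or Xu142 replicate 2 or 3. Homeologs of this kind can share reads, and the counting of such reads is not given in the sources used here.

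Set per kilobase of gene length, LOG8 was the most abundant listed LOG gene in Xu142, while 3 LOG genes lay close together in Xu142fl. LOG5 of the D subgenome stood at 130.02 ± 39.7 normalised reads per kb in Xu142fl and 26.1 ± 21.7 in Xu142, and LOG8 at 104 ± 4.59 in Xu142fl and 321 ± 34.2 in Xu142 (SD, n = 3 each). LOG1 stood at 109 ± 6.75 per kb in Xu142fl and 35.6 ± 1.99 in Xu142. Summed over the 5 genes the level was 364 ± 28.1 per kb in Xu142fl and 418 ± 29.5 in Xu142, with libraries of 334 to 390.0 and 385 to 443 that overlap. The sum covers listed genes only, and LOG genes that were not called are outside it.

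UGT76C2 attaches glucose to a ring nitrogen of cytokinins in Arabidopsis, which inactivates them. Gh_A05G296100 (chromosome A05, 42460612 to 42462165) was lower in Xu142fl on both days on which it was listed. At -1 DPA it had 66.9, 65.0 and 121 normalised reads in Xu142fl, against 386, 414 and 409 in Xu142. On that day the log2 ratio was -2.26 ± 0.31 (adjusted p = 1.63e-36 in the authors' deposited table), where 0.676% of all tested genes were called lower. At 1 DPA it had 98.3, 73.8 and 69.2 normalised reads in Xu142fl, against 190.3, 169 and 156 in Xu142, with a log2 ratio of -1.09 ± 0.18 (adjusted p = 9.05e-06 in the authors' deposited table). Whether the ratio differs between the days was not tested, since each day was normalised on its own.

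Gh_D05G304900 (chromosome D05, 33522591 to 33524037), also named UGT76C2, was listed as lower at 0 and 1 DPA. At 0 DPA it had 44.9, 39.8 and 26.4 normalised reads in Xu142fl, against 116, 103 and 63.9 in Xu142, with the lowest values of both genotypes in replicate 3. The log2 ratio was -1.34 ± 0.32 (adjusted p = 0.00224 in the authors' deposited table), where 1.51% of all tested genes were called lower. It turned to 0.23 under DESeq2 factors from the listed genes, which raised the log2 ratios of that day by a median of 1.55. The edgeR adjusted p was 0.103, or 0.0674 with the replicate block, and 0.0507 to 0.573 whichever of the 6 libraries was left out.

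At 1 DPA the same gene had 10.04, 3.07 and 11.3 normalised reads in Xu142fl, against 75.5, 19.1 and 19.9 in Xu142. Xu142 replicate 1 held most of the Xu142 reads, and the log2 ratio of -2.23 ± 0.84 (adjusted p = 0.00207 in the authors' deposited table) was -1.18 without it. Under TMM or DESeq2 factors from the listed genes it was -1.06 or -1.03. Its edgeR adjusted p was 0.0514, and 0.102 to 0.193 without Xu142fl replicate 1, 2 or 3 or Xu142 replicate 1.

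The third UGT76C2 gene, Gh_A05G351500 (chromosome A05, 94317760 to 94319473), went the other way at 1 DPA. It had 522, 717 and 668 normalised reads in Xu142fl, against 328, 322 and 276 in Xu142, a log2 ratio of 1.04 ± 0.15 (adjusted p = 1.91e-08 in the authors' deposited table). It was also the most abundant of the 3 per length, with 389 ± 62.2 normalised reads per kb in Xu142fl and 189 ± 17.3 in Xu142. Gh_A05G296100 stood at 54.7 ± 10.6 per kb in Xu142fl and 117 ± 11.9 in Xu142, and Gh_D05G304900 at 5.97 ± 3.26 in Xu142fl and 28.0 ± 23.7 in Xu142 (SD, n = 3 each). Summed over the 3 genes the level was 449 ± 50.5 per kb in Xu142fl and 333 ± 48.4 in Xu142.

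**Figure D2:**
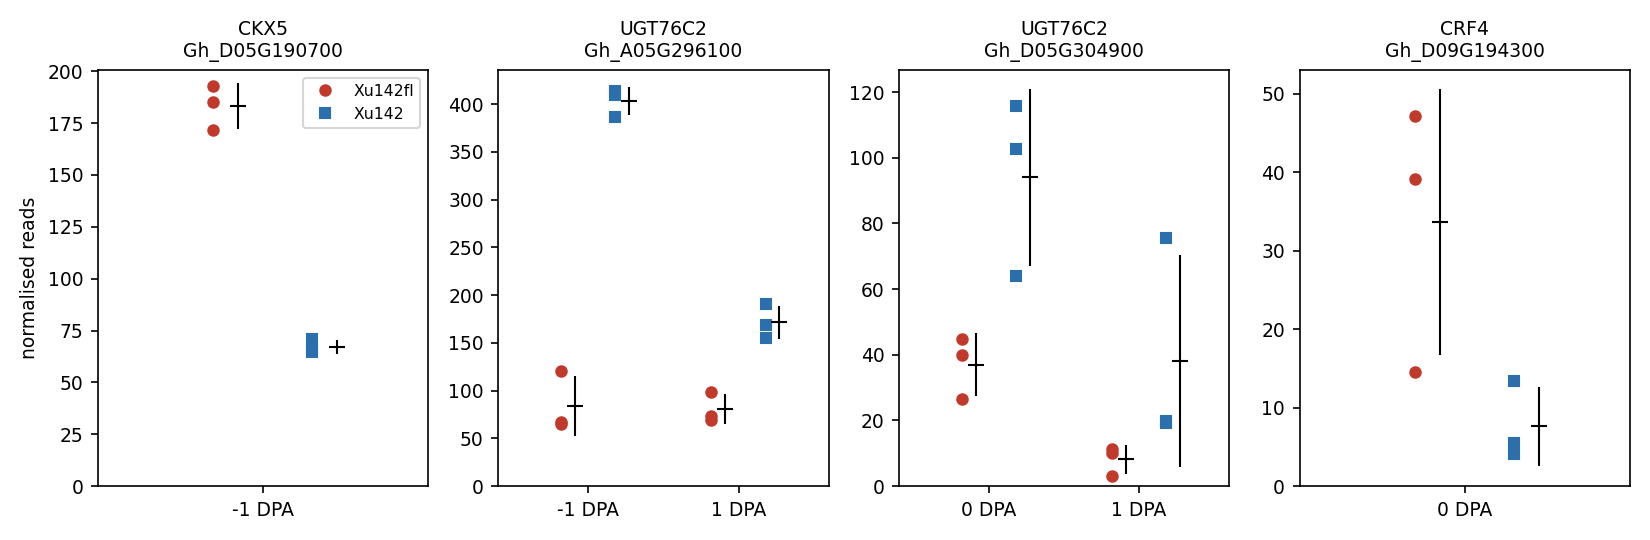
Normalised reads of the 4 cytokinin genes listed at -1 or 0 DPA, on each day on which they were listed, with circles for Xu142fl libraries, squares for Xu142 libraries and black bars for mean ± SD (n = 3). CKX5 and CRF4 lie higher in Xu142fl and both UGT76C2 genes lower on each day shown. In refits not plotted here, with DESeq2 factors from the listed genes, the log2 ratio of Gh_D05G304900 at 0 DPA turned to 0.23. That of Gh_A05G296100 at 1 DPA turned to 0.083 under TMM or 0.12 under DESeq2 factors.

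Histidine kinase 4 (HK4) is a membrane receptor that binds cytokinin outside its kinase domain and starts the phosphorelay. All 3 HK4 genes listed at 1 DPA were higher in Xu142fl. Gh_A13G028200 (chromosome A13, 3040953 to 3047588) had 1552, 2625 and 2377 normalised reads in Xu142fl, against 911, 805 and 786 in Xu142. Its counterpart on the D subgenome, Gh_D13G030000 (chromosome D13, 2713769 to 2720501), had 1119.9, 1815 and 1744 in Xu142fl, against 654, 619 and 540.4 in Xu142. In both genes Xu142fl replicate 1 was the lowest of its genotype and still above every Xu142 library.

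The log2 ratios of this pair were 1.39 ± 0.22 for the A copy and 1.37 ± 0.22 for the D copy, with adjusted p-values of 7.42e-12 and 1.89e-11 in the authors' deposited table. Both stayed called in the edgeR refit whichever library was left out, between 1.24 and 1.58 for the A copy and 1.25 and 1.56 for the D copy. Per length the copies were close, at 422 ± 108 and 369 ± 90.5 normalised reads per kb in Xu142fl and 161 ± 13.0 and 143 ± 13.7 in Xu142 (SD, n = 3 each).

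The third HK4 gene, Gh_D02G152600, stood far below the pair. It had 52.2, 64.6 and 65.8 normalised reads in Xu142fl, against 34.1, 24.6 and 24.6 in Xu142, a log2 ratio of 1.13 ± 0.20 (adjusted p = 0.00298 in the authors' deposited table). Its edgeR adjusted p was 0.0523 to 0.0871 without Xu142fl replicate 2 or 3 or Xu142 replicate 2 or 3.

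The other receptor kinases of the hormone, HK2 and HK3, carry no search term in their names and were looked up as pathway genes. All 3 that were listed at 1 DPA were higher. The HK3 gene Gh_A03G134300 had 641, 865 and 889 normalised reads in Xu142fl, against 208, 359 and 335 in Xu142, a log2 ratio of 1.41 ± 0.27. The HK2 genes Gh_D07G180800 and Gh_D11G160400 had log2 ratios of 1.14 ± 0.26 and 1.34 ± 0.19. With them, all 6 listed cytokinin receptor genes were higher, at log2 ratios between 1.13 and 1.41, and their highest adjusted p in the authors' deposited table was the 0.00298 of Gh_D02G152600.

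Phosphotransfer proteins carry the phosphate from the receptors to response regulators in the nucleus. A gene named histidine-containing phosphotransfer protein 1 (AHP1), Gh_D11G293800 (chromosome D11, 60440523 to 60442137), had 1457, 1504 and 1767 normalised reads in Xu142fl, against 538, 529 and 702 in Xu142. Replicate 3 was the highest in both genotypes, and the groups stayed far apart. The log2 ratio was 1.42 ± 0.16 (adjusted p = 2.55e-17 in the authors' deposited table). Per length it was the most abundant of the 24 members, with 1906 ± 202 normalised reads per kb in Xu142fl and 713 ± 118 in Xu142 (SD, n = 3 each).

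Response regulators were split, 2 higher and 2 lower at 1 DPA. ARR6, ARR9 and ARR17 are type-A regulators in Arabidopsis, whose transcripts rise quickly after cytokinin. ARR6 (Gh_D09G181300, chromosome D09, 45375006 to 45376671) had 49.2, 56.4 and 40.3 normalised reads in Xu142fl, against 62.0, 162 and 160.3 in Xu142. Xu142 replicate 1 stood close to the Xu142fl libraries. The log2 ratio was -1.40 ± 0.40 (adjusted p = 0.000332 in the authors' deposited table), and the edgeR adjusted p was 0.0686 to 0.131 without Xu142fl replicate 1, 2 or 3 or Xu142 replicate 2 or 3. Under TMM or DESeq2 factors it was -0.17 or -0.12 and not called.

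ARR9 (Gh_A10G189000) was lower as well, with 11.04, 5.12 and 7.37 normalised reads in Xu142fl, against 27.9, 34.1 and 30.4 in Xu142. The log2 ratio of -1.97 ± 0.33 (adjusted p = 0.000352 in the authors' deposited table) stayed called in the edgeR refit whichever library was left out, but was -0.77 or -0.74 and not called under TMM or DESeq2 factors. ARR17 (Gh_A05G266700) was higher at a low level, with 14.05, 19.5 and 15.3 in Xu142fl, against 6.20, 0 and 4.68 in Xu142. It rested on 60 reads over the Xu142fl libraries and 10 over those of Xu142. Its log2 ratio of 2.17 ± 0.76 (adjusted p = 0.015 in the authors' deposited table) was 1.55 without Xu142 replicate 2. The edgeR adjusted p of ARR17 was 0.0678, and 0.0875 to 0.235 without Xu142fl replicate 1, 2 or 3 or Xu142 replicate 2 or 3.

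ARR2 is a type-B regulator in Arabidopsis, a transcription factor of the cytokinin response. The gene with this name, Gh_A01G029900, is described in the deposited table with the receiver domain alone. It had 20.1, 17.4 and 22.7 normalised reads in Xu142fl, against 7.24, 4.09 and 10.53 in Xu142. The log2 ratio was 1.46 ± 0.38, with the highest adjusted p of the 24 members in the authors' deposited table, 0.0349. The edgeR adjusted p was 0.0549 to 0.203 whichever of the 6 libraries was left out.

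Cytokinin response factors (CRF) were listed 4 times under 4 genes. All 3 listed at 1 DPA were lower in Xu142fl. CRF2 (Gh_A08G114300, chromosome A08, 63185623 to 63186930) had 21.1, 16.4 and 21.6 normalised reads in Xu142fl, against 85.8, 69.6 and 67.8 in Xu142, a log2 ratio of -1.92 ± 0.16 (adjusted p = 6.63e-08 in the authors' deposited table). CRF4 (Gh_A12G277000, chromosome A12, 103423706 to 103424794) had 25.1, 23.6 and 23.8 in Xu142fl, against 66.2, 66.8 and 71.4 in Xu142. The log2 ratio of CRF4 was -1.50 ± 0.04 (adjusted p = 1.23e-05 in the authors' deposited table). None of the 3 response factors listed at 1 DPA was called under TMM or DESeq2 factors. CRF2 Gh_A08G114300 was then at -0.73 or -0.69 and CRF4 Gh_A12G277000 at -0.30 or -0.26.

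The second CRF2 gene, Gh_A09G209600, had 15.1, 15.4 and 10.2 normalised reads in Xu142fl, against 29.0, 34.1 and 37.4 in Xu142, a log2 ratio of -1.31 ± 0.21 (adjusted p = 0.00785 in the authors' deposited table). Under TMM or DESeq2 factors it was -0.13 or -0.089. Its edgeR adjusted p was 0.0577 to 0.114 without Xu142fl replicate 2 or 3 or Xu142 replicate 2 or 3. Per length, the 3 response factors together stood at 46.3 ± 2.56 normalised reads per kb in Xu142fl and 141.99 ± 4.20 in Xu142 (SD, n = 3 each).

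At 0 DPA a different CRF4 gene, Gh_D09G194300 (chromosome D09, 46835331 to 46837118), was listed as higher, where 0.876% of all tested genes were. It had 14.6, 47.2 and 39.2 normalised reads in Xu142fl, against 4.06, 5.45 and 13.4 in Xu142, so that the highest Xu142 library came close to the lowest Xu142fl library. For this gene the log2 ratio was 2.14 ± 0.69 (adjusted p = 0.0104 in the authors' deposited table), and 2.80 without Xu142 replicate 3. It rested on 104 reads over the Xu142fl libraries and 23 over those of Xu142. The edgeR adjusted p was 0.148, 0.138 with the replicate block, and 0.152 to 0.847 without Xu142fl replicate 2 or 3 or Xu142 replicate 1, 2 or 3. Without Xu142fl replicate 1, its lowest library, it was 0.0356.

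At 0 DPA the Xu142 libraries also held reads of transcripts that stood high in Xu142fl on the other days. Of 110 such transcripts (at least 40 normalised reads in Xu142fl, at most 3% of that in Xu142 at 1 DPA, higher at -1 DPA), 48 stood at 10% or more of their Xu142fl level. Over all 110 the median was 5.10%. The medians of the 48, which were picked by that level, were 24.1%, 22.7% and 22.2% in Xu142 replicates 1, 2 and 3. These transcripts were chosen as low in Xu142 on another day, so that no comparison of days is drawn from them. The part of this in the 2 cytokinin genes of 0 DPA was not tested.

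**Figure D3:**
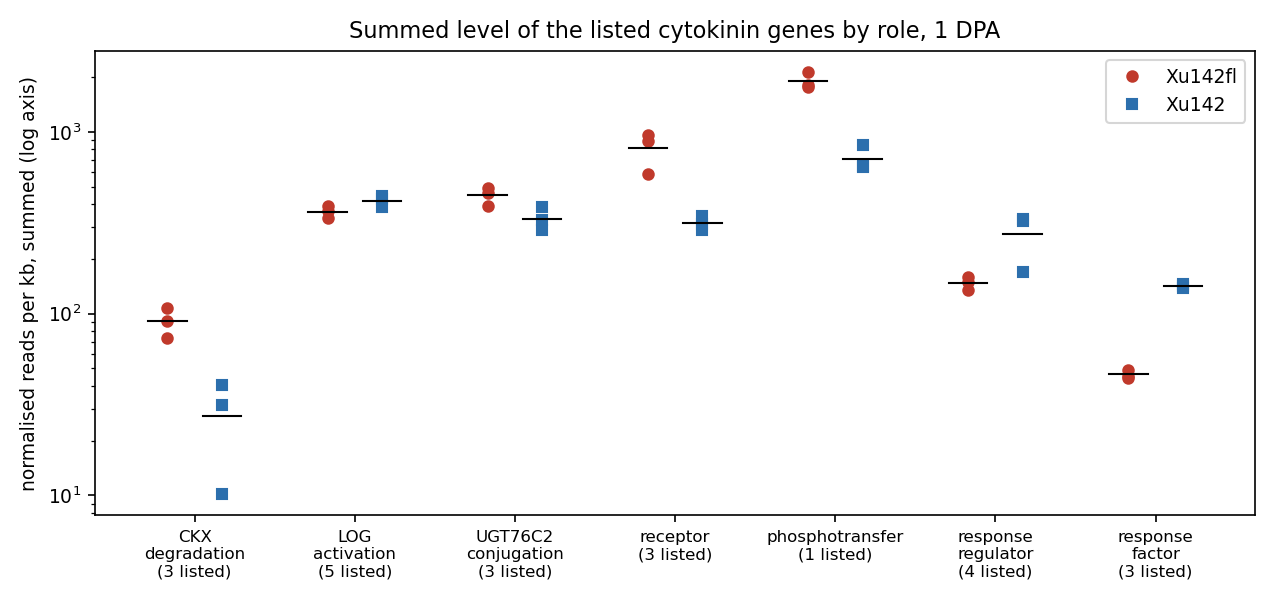
Summed normalised reads per kb of the listed cytokinin genes of each role at 1 DPA, on a log axis, with circles for Xu142fl libraries, squares for Xu142 libraries and lines for their means (n = 3). Degradation, receptor and phosphotransfer genes lie higher in Xu142fl, response factors lie lower, and the LOG libraries of the genotypes overlap.

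Histidine kinase 5 and TAA1 matched by an alternative name and are not known as cytokinin genes by function. Histidine kinase 5 (HK5, Gh_D05G065600), a kinase that lacks the part of the receptors that binds the hormone, had 594, 633 and 725 normalised reads in Xu142fl, against 412, 274 and 277 in Xu142. Its log2 ratio was 1.02 ± 0.22, and its deposited log2 fold change (Xu142 over Xu142fl) of -1.00 lay at the edge of the authors' criterion (adjusted p = 9e-07 in the authors' deposited table). TAA1 (Gh_A03G160100), which makes an auxin precursor from tryptophan, had 149, 141 and 123 in Xu142fl, against 75.5, 34.1 and 44.5 in Xu142. The log2 ratio of TAA1 was 1.42 ± 0.36 (adjusted p = 1.25e-05 in the authors' deposited table). Without alternative names, 10 members were higher and 6 lower at 1 DPA.

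Other genes of the pathway were searched by further protein names. At 1 DPA 33 were listed, 13 higher and 20 lower, and at -1 and 0 DPA 1 and 3 genes, all lower. Higher genes made up 32.5% of all listed genes at 1 DPA, 54.9% at -1 DPA and 36.7% at 0 DPA. The counts by direction below stand beside these shares. No gene was listed on any day under the names searched for cytokinin synthesis, among them adenylate isopentenyltransferase and cytokinin hydroxylase. The same held for the cytokinin exporter ABCG14 and for GeBP, a regulator linked to the cytokinin response in Arabidopsis. A gene missing from a table did not meet what every listed gene met, and its size of change is not known here.

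F-box proteins of the KISS ME DEADLY family mark type-B regulators for breakdown in Arabidopsis. Of the 4 genes listed under such a name, all as At2g44130, 3 were higher at 1 DPA, as were 3505 of all 10793 listed genes. Gh_D09G139800 had 558, 599.6 and 492 normalised reads in Xu142fl, against 85.8, 129.6 and 186 in Xu142, a log2 ratio of 2.04 ± 0.32 (adjusted p = 3.72e-16 in the authors' deposited table). The fourth, Gh_A03G123200, had 99.4, 82.0 and 90.8 in Xu142fl, against 156, 225 and 253 in Xu142. Its log2 ratio of -1.22 ± 0.21 became -0.0049 under TMM and turned to 0.034 under DESeq2 factors from the listed genes.

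Adenosine kinase and adenine phosphoribosyltransferase recycle adenosine and adenine, and they also turn cytokinin ribosides and bases into nucleotides. All 3 listed adenosine kinase 2 genes were lower at 1 DPA, as were 7288 of all 10793 listed genes. Gh_D09G160000 (chromosome D09, 43397770 to 43401261) had 1047, 918 and 851 normalised reads in Xu142fl, against 6314, 9879 and 7321 in Xu142. The log2 ratio was -3.06 ± 0.21 (adjusted p = 3.54e-64 in the authors' deposited table), and that of the A-subgenome copy Gh_A09G168900 was -2.92 ± 0.25. Of the 4 adenine phosphoribosyltransferase genes 3 were lower, among them both APT1 copies, Gh_D06G023600 at -1.63 ± 0.07 and Gh_A06G024800 at -1.66 ± 0.15. Under DESeq2 factors from the listed genes these were -0.39 and -0.41 and not called. The APT5 gene Gh_A06G112000 had a log2 ratio of 1.49 ± 0.40, and its edgeR adjusted p was 0.0557 to 0.126 without Xu142fl replicate 1 or 2 or Xu142 replicate 2 or 3.

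ENT1 proteins carry nucleosides across membranes. Every ENT1 gene that was listed was lower in Xu142fl, 1 at -1 DPA, 3 at 0 DPA and 6 at 1 DPA. Among all listed genes 393 of 872, 864 of 1366 and 7288 of 10793 were lower on those days. Gh_D12G161100 (chromosome D12, 47209380 to 47211732) had 0, 0 and 0.567 normalised reads in Xu142fl at 1 DPA, against 1099, 1424 and 1302 in Xu142. That is 1 read over the Xu142fl libraries and 3220 over those of Xu142, a ratio of Xu142 over Xu142fl of 4707 (95% counting interval, 844 to 185980). Gh_A10G077400 and Gh_A12G163000 had no read in Xu142fl, against 22 and 18 reads over the Xu142 libraries. The interval covers counting error only.

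Zeatin O-xylosyltransferase attaches xylose to zeatin in bean, and 2 genes with this name were lower at 1 DPA. Gh_D01G215100 had 156, 145 and 149 normalised reads in Xu142fl, against 526, 838 and 725 in Xu142, a log2 ratio of -2.22 ± 0.19 (adjusted p = 7.75e-28 in the authors' deposited table). Gh_A01G218900 had a log2 ratio of -1.21 ± 0.22, which turned to 0.016 under DESeq2 factors from the listed genes. The 3 listed UGT73C genes, sugar transferases of a family that acts on zeatin and other plant compounds, were higher, and 2 of them were not called by edgeR with all libraries. Purine permeases (PUP), a family with some cytokinin carriers, were 1 higher and 2 lower.

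**Figure D4:**
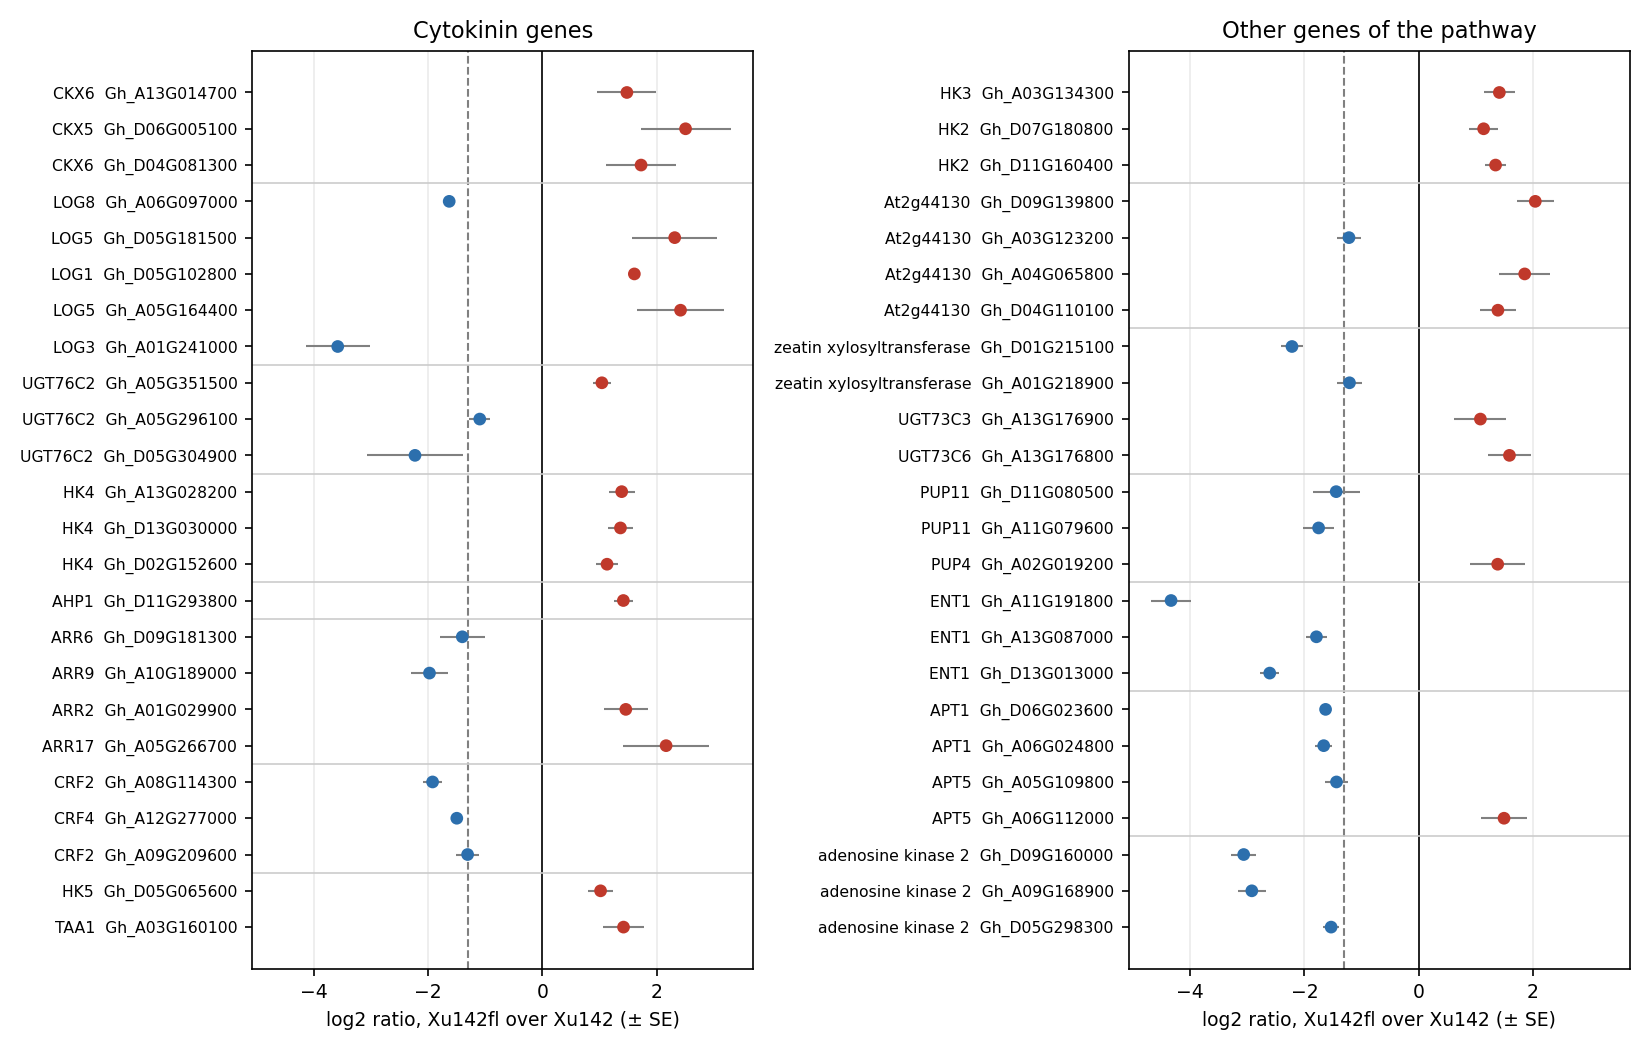
Log2 ratios at 1 DPA, Xu142fl over Xu142, with SE (n = 3 each), for the 24 listed cytokinin genes and for other pathway genes. The latter are those whose mean over the 6 libraries reached 10 normalised reads, with more than 3 reads in Xu142fl. Cyclin D3, knotted-1-like and WUSCHEL-related genes are left out of the plot. The dashed line is the median of all listed genes, -1.31, and under DESeq2 factors from the listed genes Gh_A05G296100, Gh_A03G123200 and Gh_A01G218900 turned to 0.12, 0.034 and 0.016.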

How the data were processed

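RNA of ovules was measured in 18 libraries, with groups and replicate numbers from the sample titles. The authors deposited 1 table per day with 6 libraries each. The genome build, annotation, aligner, counting and strand setting are not given in the sources. Each library has a column of normalised reads, a signal deposited by the authors. With a factor of 0.733 to 1.76 for each library, 100% of listed values became whole reads, within a tolerance of 0.001. The log2 fold change deposited by the authors is Xu142 over Xu142fl, as its sign beside the group means shows, and is smaller in size than the plain ratio in every listed gene. The deposited p-values, raw and adjusted, are the authors' own. Gene positions and lengths in bases are as deposited.

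The plan named an edgeR test for tables of all genes and the authors' calls for tables of called genes, and the second case applied. The members, gene lists and tests were chosen with earlier results of these data known. The number of tested genes, 58161, 57326 and 61474 at -1, 0 and 1 DPA, was recovered from raw and adjusted p-values. Levels, SD, log2 ratios of means and SE by error propagation were computed in Python 3.11.15. Per-library values were to be printed for members listed at -1 or 0 DPA or on more than 1 day, and at 1 DPA for the 3 most abundant and 2 most changed members (mean of at least 10 normalised reads) of each role. This took in all members except ARR17, which was added after its values were seen. Alternatives were refits of the recovered reads of all listed genes in R 4.3.3 with edgeR 4.0.16, DESeq2 1.42.0 and limma 3.58.1, adjusting by Benjamini-Hochberg over all genes tested. The refits were also run on simulated data in which most genes did not change. In the deposited lists every gene was called, so the simulation does not show how the refits behave there. Because the refits saw called genes only, their spread estimates come from that selection.

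Replicates of a group differed by more than sampling noise (chi-square per degree of freedom, 1.70 to 35.1). Same-numbered libraries deviated together at 0 DPA (r = 0.17, 0.10 and 0.20 across listed genes), which is taken as pairing there, and not at -1 DPA (0.01, 0.04 and 0.02) or 1 DPA (0.07, 0.04 and -0.02). Of the members' identifiers 0 matched the RefSeq gene table, and no sequence of the members was used here.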

Additional observations from a re-analysis of the deposited data

How the results depend on the processing

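At -1 DPA the count of 2 called members held in every refit except under DESeq2 factors from the listed genes, which gave 1, with 0 of the higher and CKX5 at 0.34. At 0 DPA the 2 calls did not hold. The edgeR refit and both limma fits, on log2(value + 1) and log2(value + 0.1), called 0 of them, as did edgeR with the replicate block, although each gave both an unadjusted p under 0.05. DESeq2 called 1, lower. TMM or DESeq2 factors from the listed genes each called 1, higher and 0 lower, and leaving out 1 library gave 0 to 1 called, 0 to 1 higher and 0 lower. An adjusted p under 0.01 kept 1 and recommended names alone kept 1, both lower, with 0 higher. The last choice was made after seeing the data.

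At 1 DPA edgeR called 21, DESeq2 22, limma 18 and 17, and edgeR with the replicate block 22, where the numbers do not pair the libraries and the uncalled ones were ARR2 (adjusted p = 0.0647) and ARR17. Of all 10793 listed genes these settings called 10130, 9808, 9909, 9333 and 10249, in the same order. Leaving out 1 library gave 15 to 21 called, with 9 to 13 higher and 6 to 8 lower. Under TMM or DESeq2 factors 16 were called and 1 of the lower ones remained. Over all listed genes 2411 or 2317 were then called lower, beside 7288 listed as lower. Such factors were computed from the called genes alone. At -1, 0 and 1 DPA TMM factors moved the log2 ratios by a median of -0.17, 1.10 and 1.20. DESeq2 factors moved them by a median of -1.10, 1.55 and 1.24. Ratios that turned sign were Gh_D05G304900 at 0 DPA (0.23, DESeq2 factors), Gh_A05G296100 at 1 DPA (0.083 under TMM and 0.12 under DESeq2 factors), Gh_A03G123200 (0.034, DESeq2 factors) and Gh_A01G218900 (0.016, DESeq2 factors). Why these ratios turned was not tested. The lowest members rest on few reads, and unlisted genes limit every statement on a family.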

Other observations

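Some genes that respond to cytokinin or act upstream of it were also listed at 1 DPA. A cyclin D3-3 gene (Gh_D03G027000), of a cyclin type that cytokinin induces in Arabidopsis, had 311, 221 and 243 normalised reads in Xu142fl, against 160.3, 64.1 and 83.1 in Xu142, a log2 ratio of 1.34 ± 0.44. Its edgeR adjusted p was 0.0544 to 0.106 without Xu142fl replicate 1 or 3 or Xu142 replicate 3. The homeobox gene Gh_A08G232900, named knotted-1-like 1, had no read in Xu142fl and 22 reads over the Xu142 libraries. Another, Gh_A05G198100, named knotted-1-like 2, had 47 reads over the Xu142fl libraries and 3 over those of Xu142. The third listed, Gh_A03G160800, named knotted-1-like 6, had a log2 ratio of -1.63 ± 0.47, with an edgeR adjusted p of 0.0655. A WUSCHEL-related homeobox 3 gene, Gh_D05G098200, had 1 read over the Xu142fl libraries and 28 over those of Xu142. Its edgeR adjusted p was 0.0875 to 0.118 without Xu142fl replicate 1, 2 or 3 or Xu142 replicate 2.

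Other proteins with a receiver domain outside the search terms were listed too, a group chosen after its values were seen. All 4 listed genes named ethylene receptor 2 were higher at 1 DPA, with log2 ratios of 2.10 (Gh_D02G049000), 2.38 (Gh_A09G249600), 2.12 (Gh_D09G240100) and 1.51 (Gh_A02G043700). Gh_D02G049000 stood at 1199 ± 193 normalised reads in Xu142fl and 279 ± 46.0 in Xu142 at 1 DPA (SD, n = 3 each). Pseudo-response regulators of the APRR type went both ways at 1 DPA, with an APRR2 gene at 1.11 (Gh_D03G190800), another at -2.13 (Gh_A08G183500) and an APRR5 gene at -1.86 (Gh_A11G108700).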
